A study of Mus musculus with 2 samples.

Results

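Cyclic AMP (cAMP) relaxes arterial smooth muscle, and how far and how long it acts depends on the phosphodiesterases (PDEs) that break it down and on the A-kinase anchoring proteins (AKAPs) that hold protein kinase A (PKA), its main effector, at particular places in the cell. PDE3 and PDE4 enzymes carry much of the cAMP breakdown in vascular muscle, PDE7 and PDE8 enzymes are further cAMP-selective families, and AKAPs also bind phosphodiesterases and phosphatases beside PKA. The 10 genes described here are 7 cAMP phosphodiesterase genes (Pde3a, Pde3b, Pde4a, Pde4b, Pde4d, Pde7b and Pde8a) and 3 AKAP genes (Akap1, Akap12 and Akap13). They were taken by matching gene symbols to the Ensembl identifiers of the deposited tables, which list 55573 genes, and all 10 were found, each with at least 10 reads in the libraries together.

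The data are 2 RNA-seq libraries of mesenteric artery, the arteries of the intestine, from wild type C57BL/6 mice aged 10 weeks. Arteries in 5 mM K+ solution gave the control library and arteries in 60 mM K+ solution, which depolarizes smooth muscle, gave the other, with 60 min given in the labels for each. Tissue of 2 mice was pooled in each library, and 1 library per condition leaves no replicate check: no difference below has an error between animals, and no test of the conditions is possible. The comparison asks which mRNAs differ after sustained depolarization. The supplementary methods of the study place control tissue on the distal side of the ligated arteries. It was taken after incubation without perfusion and before the rest was perfused with 60 mM K+. The main text describes perfusion with either solution, and which holds for these arteries is not stated. Segment, perfusion and time in solution therefore cannot be told apart from K+ for these libraries. By the supplementary methods all solutions contained tetrodotoxin. In whole tissue, a change in the number of cells of a type and a change in RNA per cell cannot be told apart either.

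Gene counts summed to 10480918 reads for the control arteries and 11289598 for the depolarized arteries. The log2(fold-change) is the level in 60 mM K+ over that in 5 mM K+ with library sizes corrected by the TMM factors of edgeR (trimmed mean of M-values), and CPM denotes TMM-scaled reads per 1000000. Each log2(fold-change) carries a 95% exact Clopper-Pearson interval, which covers counting error only and not the error between mice. A gene was called where a random-sampling test on the reads of these 2 libraries gave a q-value under 0.005 and log2(fold-change) lay above 1 or below -1, the thresholds of the study. The test was recomputed here, so the calls below are not the study's own calls, and they compare the libraries, not the conditions.

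Pde4b, Pde4d and Akap12 were called higher in the depolarized library, and none of the 10 genes was called lower. Among all 21374 genes with a read in either library, 2.11% were called higher and 1.10% were called lower. Pde4b had 3.39 times its control level, Pde4d 3.17 times and Akap12 2.38 times. The other 7 genes lay between a log2(fold-change) of -0.66 for Pde7b and 0.62 for Pde4a. The counting interval lay above 0 for 5 of the 10 genes, compared with 25.0% of the 14829 genes with at least 10 reads, and below 0 for 2 of the 10, compared with 20.3%. The median of the 10 genes was 0.22, and that of the 14829 genes was below 0 by less than 0.01. The genes were chosen with results of these libraries known, so these counts describe them only.

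**Figure D1:**
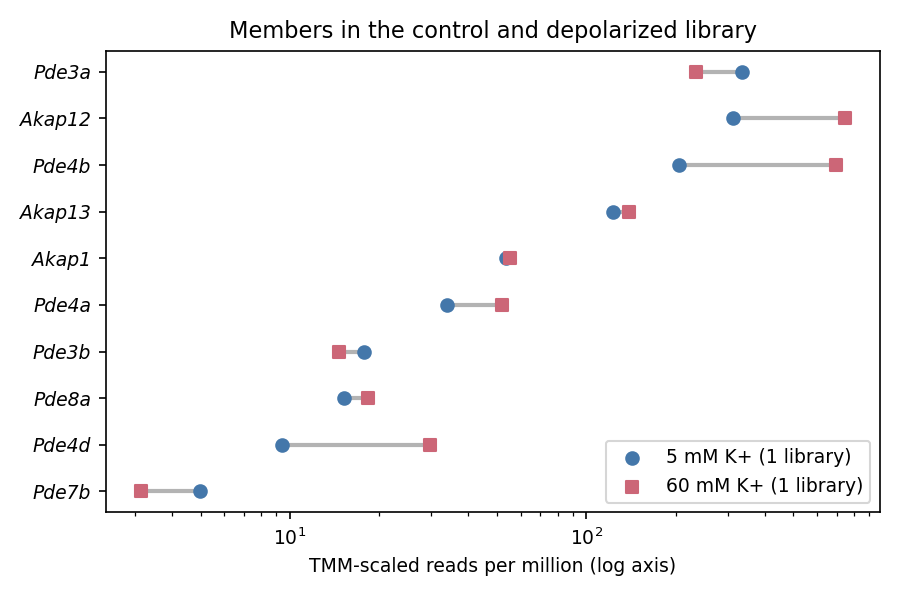
Level of each of the 10 genes in TMM-scaled reads per 1000000, on a log axis, with a circle for the control library, a square for the depolarized library and a line joining them (1 library per condition). Pde4b, Akap12 and Pde4d show the long lines to the right, with Pde4b at 205 and 696 CPM, whereas Pde3a and Pde7b run to the left.

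The PDE4 enzymes are cAMP-selective and are the targets of rolipram-type inhibitors, and PDE4B and PDE4D are known to be transcribed from several promoters. Pde4b (ENSMUSG00000028525, chromosome 4 from 101760148 to 102279864 on the mouse genome mm9) had 2310 control reads and 7305 after depolarization, or 205 and 696 CPM. This gave a log2(fold-change) of 1.76 (interval from 1.69 to 1.83), at rank 261 from the top of the 14829 genes. Pde4d (ENSMUSG00000021699, chromosome 13 from 109240142 to 110743669) had 106 and 313 reads, or 9.41 and 29.8 CPM. Its log2(fold-change) was 1.66 (1.34 to 2.0), at rank 301. Pde4b was far the more abundant of the pair, but the fold change was of like size: there were 21.8 Pde4b reads per Pde4d read with 5 mM K+ and 23.3 with 60 mM K+, a 1.07-fold difference whose counting interval of 0.847 to 1.35 includes no difference. A ratio of genes within a library does not depend on how the libraries are scaled.

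Pde4a (ENSMUSG00000032177, chromosome 9 from 20970158 to 21017692), the remaining PDE4 gene among the 10, had 381 and 544 reads. Its log2(fold-change) was 0.62 (0.42 to 0.81), higher in the depolarized library beyond counting error but below the threshold for a call. The ratio of Pde4b to Pde4a went from 6.06 to 13.4, a 2.21-fold difference (1.92 to 2.55), in a pair chosen after the values were seen. The last gene of the family, Pde4c, lies outside the 10 genes and was barely detected, with 7 and 18 reads. Together the 4 PDE4 genes had 2804 reads with 5 mM K+ and 8180 with 60 mM K+, and Pde4b made up 82.4% of them (exact 95% interval 80.9 to 83.8) and 89.3% (88.6 to 90.0). The share of Pde4a was 13.6% and then 6.65%, while that of Pde4d was 3.78% and 3.83%. The depolarized library thus held the same PDE4 gene in first place, with a larger share, at a higher summed level.

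The promoters of these genes are shown because the study concerns CREB, which binds the cAMP response element (CRE). The RefSeq promoter table of the mouse assembly GRCm38.p6 holds 14 promoters for 7 of the 10 genes, and has no entry for Akap12, Pde3a and Pde3b. In the 250 bases before each start, TGACGTCA, the full CRE, was in 0 of the 14, compared with 1.55% of 32851 promoters of all genes. The short CRE motif TGACG, searched on both strands and contained in the full CRE, was in 3 of the 14, compared with 17.8% of all promoters. The AP-1 motif TGANTCA was in 1 of the 14, a promoter of Akap1, compared with 6.75%. The short motif lay in 1 of 4 promoters of Pde4b, where it begins 34 bases before the start, and not in the 1 promoter listed for Pde4d. It was also found in 1 of 3 promoters of Pde4a and in that of Pde8a. The GENCODE vM1 annotation holds 19 transcripts of Pde4d, so other starts may lie outside the window searched, and absence from it says nothing of them. Capitals mark the short motif, which reads CGTCA where it lies on the opposite strand. All 4 genes are on the plus strand, and the positions are those of GRCm38.p6.
Pde4b, chr4:102421305-102421554: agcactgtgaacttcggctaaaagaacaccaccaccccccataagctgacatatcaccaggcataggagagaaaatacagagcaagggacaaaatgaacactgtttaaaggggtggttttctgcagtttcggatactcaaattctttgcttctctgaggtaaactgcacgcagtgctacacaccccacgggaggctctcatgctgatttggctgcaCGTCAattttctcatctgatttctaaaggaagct
Pde4d, chr13:108653927-108654176: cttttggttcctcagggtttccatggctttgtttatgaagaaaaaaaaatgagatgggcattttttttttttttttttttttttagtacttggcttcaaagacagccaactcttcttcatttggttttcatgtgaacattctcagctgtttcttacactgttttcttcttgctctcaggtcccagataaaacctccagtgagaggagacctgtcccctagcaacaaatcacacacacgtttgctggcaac
Pde4a, chr9:21183851-21184100: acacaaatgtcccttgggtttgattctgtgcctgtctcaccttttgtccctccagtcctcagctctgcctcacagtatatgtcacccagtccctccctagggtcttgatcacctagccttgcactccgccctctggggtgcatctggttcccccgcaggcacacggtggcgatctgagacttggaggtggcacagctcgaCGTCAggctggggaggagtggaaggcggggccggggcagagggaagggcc
Pde8a, chr7:81213015-81213264: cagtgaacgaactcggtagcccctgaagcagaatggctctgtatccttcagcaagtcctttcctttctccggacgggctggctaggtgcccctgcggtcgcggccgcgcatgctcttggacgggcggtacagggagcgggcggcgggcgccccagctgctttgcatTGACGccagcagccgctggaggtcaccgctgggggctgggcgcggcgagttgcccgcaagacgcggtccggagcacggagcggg
Reads were counted per gene, so the tables do not show which promoter was in use, and a match of letters is a description of these windows and not a binding site.

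PDE3 enzymes also break down cAMP but are inhibited by cGMP, which links the cGMP and cAMP pathways. Pde3a (ENSMUSG00000041741, chromosome 6 from 141197790 to 141447872) had 3777 control reads, more than any other of the 10 genes, and 2462 reads after depolarization. Its log2(fold-change) was -0.52 (-0.59 to -0.44), lower beyond counting error but within the fold threshold. Pde3b (ENSMUSG00000030671, chromosome 7 from 121558795 to 121682765) had 200 and 154 reads, a log2(fold-change) of -0.28 with an interval of -0.59 to 0.03. Pde3a and Pde4b changed places in the read counts. In 5 mM K+ there were 0.612 Pde4b reads for each Pde3a read, and in 60 mM K+ there were 2.97, a 4.85-fold difference (4.52 to 5.20) in a pair chosen after the values were seen.

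Of the remaining phosphodiesterases, PDE7B and PDE8A are cAMP-selective enzymes that are not sensitive to rolipram. Pde7b (ENSMUSG00000019990, chromosome 10 from 20117810 to 20444884) was the least counted of the 10 genes, with 56 and 33 reads, and its log2(fold-change) of -0.66 had the widest interval, -1.33 to -0.02. Pde8a (ENSMUSG00000025584, chromosome 7 from 88358482 to 88479419) had 172 and 193 reads, a log2(fold-change) of 0.27 (-0.04 to 0.57). At this depth no difference was detectable for Pde8a. That of Pde7b only just cleared its own counting interval, and its q-value in the random-sampling test, adjusted over all genes, was 0.107.

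**Figure D2:**
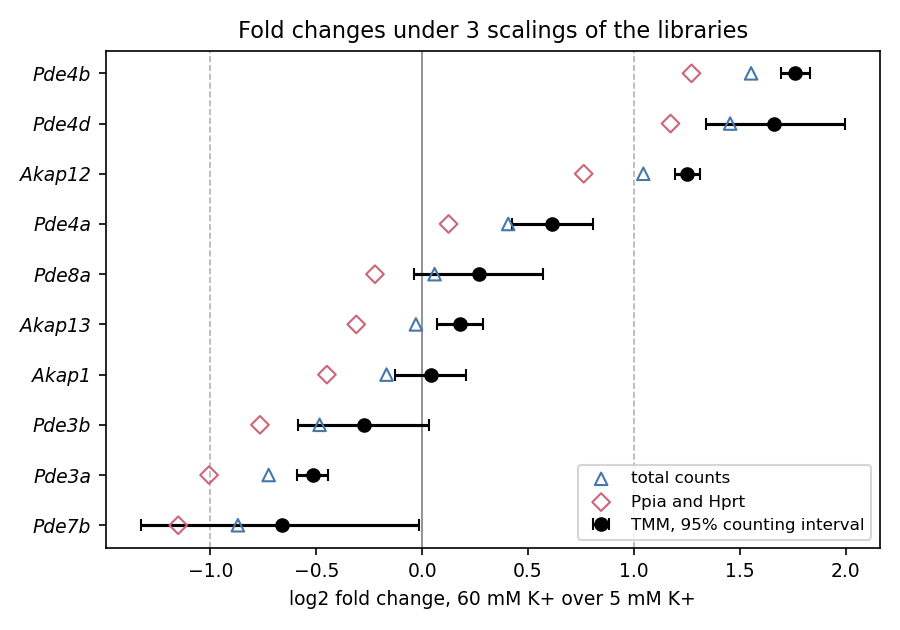
Log2(fold-change) of each of the 10 genes, 60 mM K+ over 5 mM K+, with filled points and bars for TMM scaling and its 95% counting interval, triangles for total-count scaling and diamonds for scaling by Ppia and Hprt; dashed lines mark -1 and 1. Pde4b and Pde4d stay above 1 under all 3 scalings, whereas Akap12 lies at 1.25, 1.04 and 0.76.

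AKAP12, also called gravin, is a scaffold that holds PKA, protein kinase C and PDE4 near beta-adrenergic receptors at the cell membrane. Akap12 (ENSMUSG00000038587, chromosome 10 from 5987073 to 6080212) had 3515 control reads and 7811 reads after depolarization, or 312 and 744 CPM. Its log2(fold-change) was 1.25 (1.20 to 1.31), at rank 566 from the top. In the depolarized library it had the most reads of the 10 genes, just above Pde4b. Its fold change was smaller than that of Pde4b: the ratio of Akap12 to Pde4b reads went from 1.52 to 1.07, a 0.703-fold difference (0.660 to 0.748), again in a pair chosen after the values were seen.

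The other anchoring genes differed little. AKAP13 is a large scaffold that anchors PKA, and AKAP1 places PKA at the outer membrane of mitochondria. Akap13 (ENSMUSG00000066406, chromosome 7 from 82600420 to 82899495) had 1388 and 1465 reads, a log2(fold-change) of 0.18 (0.07 to 0.29), which was -0.03 with total-count scaling. Akap1 (ENSMUSG00000018428, chromosome 11 from 88692106 to 88725900) had 606 and 581 reads, a log2(fold-change) of 0.04 (-0.13 to 0.21), which was -0.17 with total-count scaling. For each Akap13 read there were 2.53 Akap12 reads with 5 mM K+ and 5.33 with 60 mM K+, a 2.11-fold difference (1.93 to 2.29), so that these scaffolds differed in their change whatever the scaling.

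**Figure D3:**
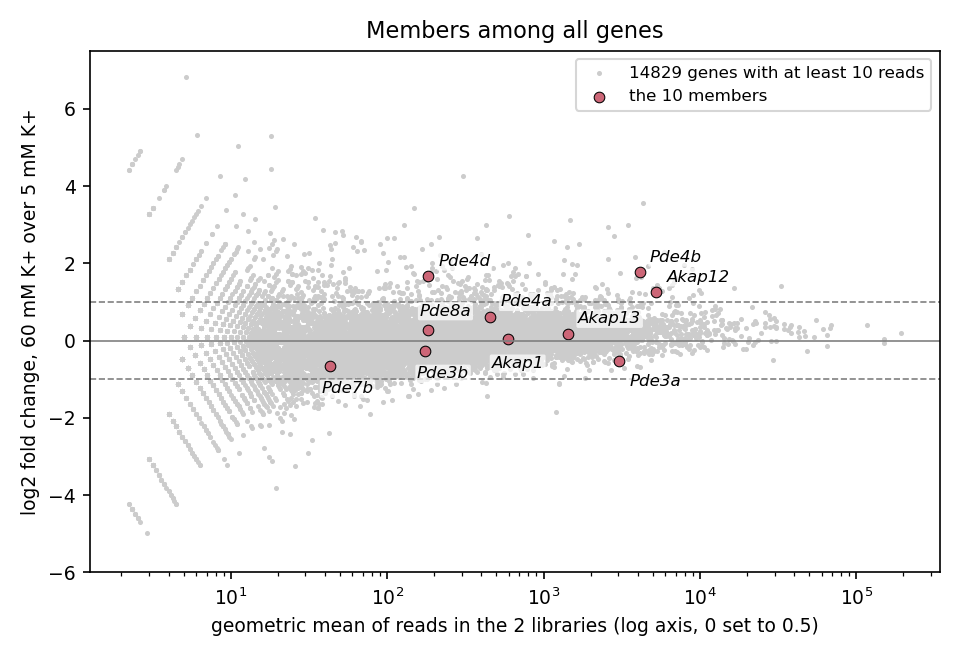
Log2(fold-change), 60 mM K+ over 5 mM K+, against the geometric mean of the reads in the 2 libraries on a log axis, for 14829 genes with at least 10 reads (grey) and the 10 genes described here (red); dashed lines mark -1 and 1. Pde4b and Akap12 lie among well-covered genes above the upper line, Pde4d lies above it with fewer reads, and the other 7 genes lie between the lines.

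Levels can be compared between genes only per length, and the lengths in use differ. The deposited FPKM values, fragments per kilobase scaled to library size, rest on a length of 1984 bases for Pde4b, 1882 for Pde4d, 2860 for Akap13, 6014 for Akap12 and 7061 for Pde3a, as obtained by dividing counts by FPKM. The exons of the same genes in GENCODE vM1 cover 10560, 12006, 15207, 6244 and 4205 bases. On the FPKM scale Pde4b had the highest level of the 10 genes in each library, 111 and 326, followed by Akap12 with 55.8 and 115. Pde3a at 51.0 and Akap13 at 46.3 came next with 5 mM K+, and with 60 mM K+ Pde3a, at 30.9, came after Akap13, at 45.4. Per kilobase of GENCODE vM1 exons, the order of levels in CPM was Pde3a (79.7), Akap12 (49.96) and Pde4b (19.4) with 5 mM K+, and Akap12 (119), Pde4b (65.9) and Pde3a (55.8) with 60 mM K+. The place of Pde4b at the top therefore depends on the length assumed, while its change between the libraries does not. Pde7b was the lowest of the 10 genes in each library on either scale. In GENCODE vM1 no other gene shares exon bases with any of the 10, but the tables list identifiers that this annotation lacks, so overlap in the annotation used for counting was not tested.

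Across all 16 cAMP-hydrolysing phosphodiesterases, 2 genes had 0 reads in both libraries (Pde1c and Pde11a). Pde2a had 1 read with 5 mM K+ and 0 with 60 mM K+, so PDE2 hardly enters the shares below. The other 13 genes had at least 10 reads. Of these 13, 2 were called higher, Pde4b and Pde4d, and 0 were called lower, compared with 2.11% and 1.10% of all 21374 genes. The median log2(fold-change) of the 13 was -0.28, or -0.48 with total counts and -0.14 over genes with at least 50 reads, and without the 7 genes described here the median of the other 6 was -0.45. The calcium-activated enzyme gene Pde1a, among the most abundant of the list, had 819 and 603 reads, giving a log2(fold-change) of -0.34 (-0.49 to -0.19). On the FPKM scale the PDE4 family held 50.9% of the summed level with 5 mM K+ and 81.1% with 60 mM K+. PDE3 held 23.2% and then 8.22%, and PDE1 held 17.8% and then 6.54%. By reads, without a length, PDE4 held 33.8% and 68.6%, and PDE3 held 48.0% and 21.9%, so that the family in first place in the control library depends on the length while the gain of PDE4 does not.

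**Figure D4:**
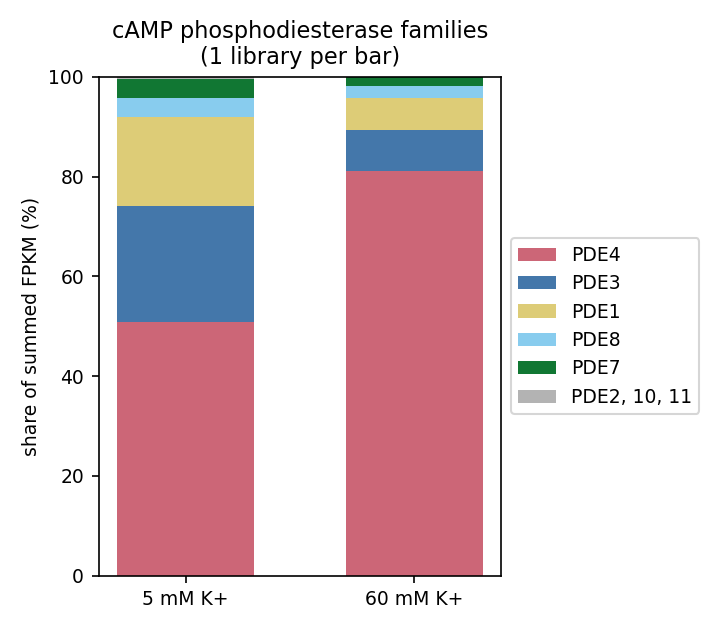
Share of the summed FPKM of 16 cAMP-hydrolysing phosphodiesterase genes held by each family, in percent, stacked in 1 bar for each library. PDE4 goes from 50.9% to 81.1%, while PDE3 and PDE1 take smaller shares in 60 mM K+.

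The anchoring list held 18 genes, 13 of them with at least 10 reads. In it 1 was called higher, Akap12, and 0 were called lower, compared with 2.11% and 1.10% of all 21374 genes. The median log2(fold-change) of the list was 0.04, and that of the 10 anchoring genes other than Akap1, Akap12 and Akap13 was -0.14. With total counts the median of the 13 was -0.17, so its direction depends on the scaling. Among the most abundant were Pde4dip, which encodes myomegalin and binds PDE4D, with 2736 and 2752 reads, a log2(fold-change) of 0.11 (0.03 to 0.19), and the nuclear anchor Akap8 with 1163 and 944 reads and -0.20 (-0.32 to -0.07). The counting interval lay above 0 for 4 of the 13, below 0 for 4 and spanned 0 for 5. Over the 14829 genes, 25.0% lay above 0 and 20.3% below. The lowest log2(fold-change) of the list was -0.64. Other anchoring genes thus also differed beyond counting error, in either direction, but Akap12 lay apart from them in size of change, as a description of these libraries.

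Adenylyl cyclases make cAMP. Of 10 genes, 8 had at least 10 reads, 0 were called in either direction, and the median log2(fold-change) was -0.43. The counting interval lay above 0 for 2 of the 8, below 0 for 5 and spanned 0 for 1. The summed level of the list went the other way from its median, with 1732 CPM in the control library and 1994 CPM in the depolarized library. Adcy5, the most abundant, had 14277 and 17020 reads, giving a log2(fold-change) of 0.35 (0.32 to 0.39), Adcy6 had 2363 and 1722 reads and -0.36 (-0.45 to -0.26), and Adcy4 had 927 and 1080 reads and 0.32 (0.19 to 0.45). Among 9 genes of PKA subunits and inhibitors, 8 had at least 10 reads, 0 were called, and the median was 0.05, or -0.16 with total counts. The regulatory subunit gene Prkar1a had 10810 and 9806 reads, giving a log2(fold-change) of -0.04 (-0.08 to 0.00035), the catalytic subunit gene Prkacb had 3258 and 2772 reads and -0.13 (-0.21 to -0.06), and the inhibitor gene Pkig had 1188 and 1346 reads and 0.28 (0.17 to 0.40). No cyclase or kinase gene with at least 10 reads had a log2(fold-change) above 1 or below -1. Over all 21374 genes, 2.11% were called higher and 1.10% lower, so 0 called genes does not set lists this short apart.

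**Figure D5:**
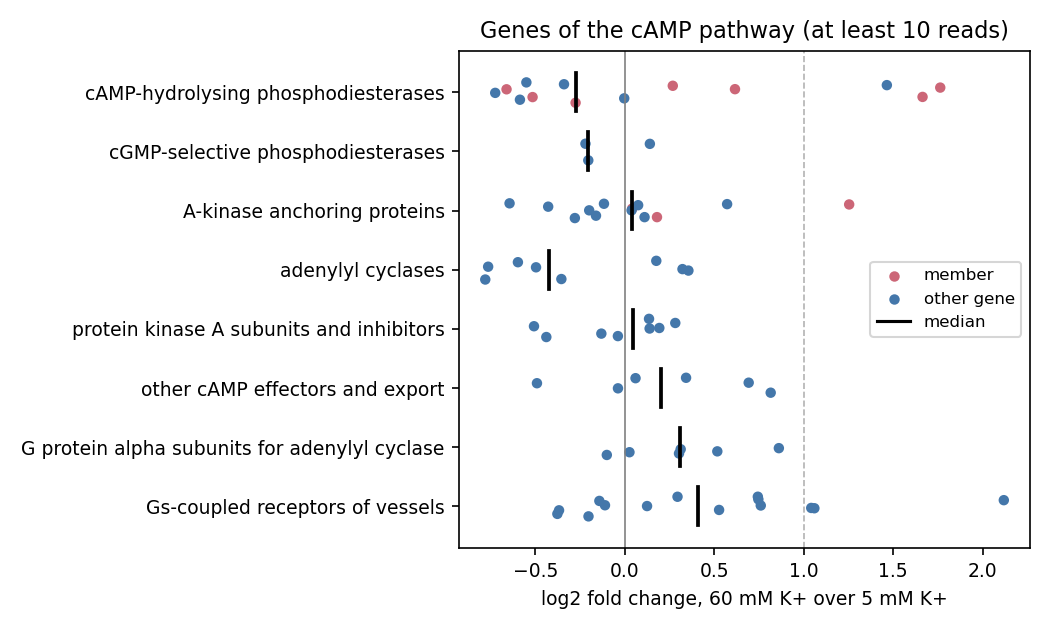
Log2(fold-change), 60 mM K+ over 5 mM K+, of genes with at least 10 reads in 8 lists of the cAMP pathway, with red points for the 10 genes described here, blue points for other genes and a black line for each median. The cyclases have a median of -0.43 and the receptor list one of 0.41, and the phosphodiesterase list is spread from -0.72 to 1.76.

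The values above rest on the scaling of the libraries. With total read counts every log2(fold-change) is lower by 0.21, and Pde4b at 1.55, Pde4d at 1.45 and Akap12 at 1.04 were still called. Ppia and Hprt were the housekeeping genes of the study for qPCR, where their expression was described as similar in 5 mM and 60 mM K+. In these libraries they had log2(fold-change) of 0.51 (0.47 to 0.55) and 0.47 (0.31 to 0.63) with TMM. Set against the mean of this pair, a scaling added after the values were seen, Pde4b at 1.27 and Pde4d at 1.17 remained called higher, Akap12 at 0.76 was no longer called, and Pde3a at -1.01 and Pde7b at -1.15 were called lower. The calls also depended on the spread assumed between libraries. With an assumed coefficient of variation of 0.1, edgeR's exact test called Pde4b, Pde4d and Akap12. With 0.2 it called none of them at the threshold of 0.005, with Benjamini-Hochberg adjusted p = 0.00842 for Pde4b, 0.0367 for Pde4d and 0.192 for Akap12.

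Markers of cell types in the artery wall, and of cells outside it, differed between the libraries as well. All 8 smooth muscle markers were detected, with a summed level of 36884 and 40487 CPM in control and depolarized arteries. Single genes lay between -0.53 and 0.40 in log2(fold-change), with 5 intervals above 0 and 3 below. Most of the sum came from Acta2, at 16614 and 19023 CPM, and Myh11, at 13672 and 14130 CPM. Scaling by the summed markers therefore rests mainly on these 2 genes. The 8 endothelial markers summed to 3351 and 4565 CPM, with 7 of 8 intervals above 0 and Kdr called lower. The 7 fibroblast markers summed to 7257 and 6002 CPM, with 6 of 7 intervals below 0. The 10 macrophage markers found summed to 73.2 and 58.8 CPM, with 1 called lower, Lyve1, at 28.2 and 12.9 CPM. Of their intervals 7 spanned 0, 2 lay below 0 and 1 lay above 0. The 6 adipocyte markers summed to 139 and 108 CPM, with 3 called lower. The 7 Schwann cell and nerve markers, with Th at 0, summed to 162 and 145 CPM, and the 6 lymphocyte markers, with Cd3g and Nkg7 at 0, to 0.533 and 0.762 CPM. The 8 markers of pancreatic acinar cells, which are not cells of the artery wall, summed to 11.5 and 38.6 CPM, with Prss1 and Amy2a5 at 0. Of these 8 markers, 4 were called higher. Over all 21374 genes, 2.11% were called higher and 1.10% lower. Set against the smooth muscle markers, a scaling also added after the values were seen, log2(fold-change) was 1.63 for Pde4b, 1.53 for Pde4d and 1.12 for Akap12. The part of cell composition in these differences was not tested.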

How the data were processed

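RNA of mouse mesenteric arteries in 5 mM K+ or 60 mM K+ was sequenced, 1 library per condition. Alignment to mm9 was done by the authors with TopHat2, and they deposited unscaled counts of reads per Ensembl gene together with FPKM values. The submitters' processing notes name TopHat2 2.0.12, HTSeq 0.6.1 and edgeR 3.0.8, and the builds mm8 and mm9; the gene annotation is not given in the sources used here. Counts divided by FPKM had a ratio of 1.08 between the libraries for every gene with over 20 reads in each, which is the ratio of total reads, so deposited FPKM rests on total counts. Use of strand in counting is not stated.

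TMM factors came from edgeR 4.0.16 (R 4.3.3), and DESeq2 1.42.0 gave median-of-ratios factors. The study used DEGSeq; here a random-sampling test was recomputed from its formula on counts with TMM-corrected library sizes, which need not give the q-values or calls of the study, with Benjamini-Hochberg adjustment over 21374 genes and a count of 0 set to 0.5. Quasi-likelihood fits need replicates and were not run. With 1 library per condition the test concerns the libraries. Intervals used scipy 1.17.1 in Python 3.11.15, and figures matplotlib 3.10.9.

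Symbols were matched through GENCODE vM1, which holds 32601 of the 55573 listed genes, and RefSeq. Coordinates of genes are those of GENCODE vM1 on mm9. The members and lists were chosen with earlier results of these data known. Named genes are the 10 members, of each of 8 pathway lists the called genes and the 3 with the highest summed FPKM, Ppia and Hprt, the marker lists, and for each called member the 3 genes with at least 500 reads nearest in log2(fold-change). Other genes of a list at 0 reads, Pde2a, Pde4c, Kdr, Lyve1, Acta2 and Myh11 were named after their values were seen. The alternatives were 3 other library scalings, FPKM with pseudocounts of 0.1 and 1, minimum counts, an exact binomial test, a q-value of 0.05, the exact test of edgeR at an assumed coefficient of variation (0.1, 0.2 or 0.4) and fold thresholds on the nearest interval end. Scalings, by Ppia and Hprt and by smooth muscle markers, were added after the data were seen.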

Additional observations from a re-analysis of the deposited data

How the results depend on the processing

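No paired analysis was possible because 5 mM K+ and 60 mM K+ had a single library each. Without replicates, no setting below shows how far mice differ. Pde4b, Pde4d and Akap12 were the 3 genes called higher under total-count, upper-quartile, median-of-ratios and smooth muscle marker scaling, with a minimum of 10 reads, the exact binomial test, a q-value of 0.05, fold thresholds on the nearest interval end and an assumed coefficient of variation of 0.1. With 0.2 and 0.4 the count was 0 and 0, which follows from the added spread. Scaling by Ppia and Hprt called 2 genes higher and 2 lower. Over the 10 genes, median log2(fold-change), 0.22 with TMM, was 0.0148 with total counts, 0.0145 and 0.0123 with FPKM and pseudocounts of 0.1 and 1, 0.089 with smooth muscle markers and -0.27 with Ppia and Hprt. These settings move all genes: the median of 14829 genes was -0.21, -0.21, -0.17, -0.14 and -0.49 in the same order. The share of Pde4b among PDE4 genes was 86.9% and 91.5% on the FPKM scale. Of the values of single genes, 32 moved beyond the counting interval and 38 did not; 11 changed sign, all of Akap1, Akap13 or Pde8a, and no called gene reversed. Of the list medians, 23 moved by more than 0.1.

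Over all genes, 452 were called higher and 235 lower with TMM. The counts were 307 and 542 with total counts, 352 and 420 with smooth muscle markers, 179 and 1466 with Ppia and Hprt, 261 and 62 with thresholds on the interval end, 626 and 506 at a q-value of 0.05, and 349 and 58, 65 and 8, and 0 and 0 with assumed coefficients of variation of 0.1, 0.2 and 0.4.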

Other observations

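In a list of 20 Gs-coupled receptors and receptor partners of vessels, 19 were matched, 14 had at least 10 reads, and 3 were called higher with 0 lower, compared with 2.11% and 1.10% of all 21374 genes. The counting interval lay above 0 for 7 of the 14 and spanned 0 for 7. Of the 8 endothelial markers, 7 had intervals above 0 and Kdr was called lower, with a median of 0.38, and their part in the receptor values was not tested. Ramp3, a partner of the calcitonin receptor-like receptor, had 22 control reads and 89 after depolarization, at log2(fold-change) 2.12 (95% interval for counting error from 1.43 to 2.86). Vipr1, a receptor for vasoactive intestinal peptide, had 327 and 635 reads and 1.06 (0.86 to 1.26), and the prostacyclin receptor gene Ptgir had 405 and 777 reads and 1.04 (0.87 to 1.22). With total counts, which lower each value by 0.21, Vipr1 and Ptgir fall below 1. The most abundant of the list were Ramp2, with 1477 and 1983 reads and 0.53 (0.43 to 0.62), and Ramp1, with 855 and 1349 reads and 0.76 (0.63 to 0.88). The median of the 14 genes was 0.41.

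Of the inhibitory and stimulatory G protein genes, 6 had at least 10 reads and 0 were called, with Gnai2 at 4269 and 4939 reads, or 0.31 in log2(fold-change) (0.25 to 0.37), Gnai1 at -0.10 and Gnai3 at 0.30. Among 7 genes of other cAMP effectors and export, 0 were called; Rapgef3, which encodes the cAMP-activated exchange factor EPAC1, had 441 and 664 reads and 0.69 (0.52 to 0.87), Popdc2 had 364 and 430 reads and 0.34 (0.14 to 0.55), and the transporter gene Abcc5 had 1089 and 722 reads and -0.49 (-0.63 to -0.35). A list of 8 genes held cGMP-selective phosphodiesterases together with PDE6 subunit genes that encode no catalytic subunit, Pde6d among them. Of these 8 genes, 3 had at least 10 reads and 0 were called. Pde5a had 1852 and 1498 reads and -0.20 (-0.30 to -0.11), Pde9a was at -0.22, and the non-catalytic Pde6d was at 0.14. Of all 21374 genes, 2.11% were called higher and 1.10% lower, so 0 called genes does not set these short lists apart.

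With 2 libraries, likeness of pattern reduces to nearness in log2(fold-change). Among 6549 genes with at least 500 reads, the nearest to Pde4b were Gem at 1.76, Ets1 at 1.78 and Pqlc1 at 1.74. The nearest to Akap12 were Tubgcp3 at 1.25, Parvb at 1.25 and Epha2 at 1.26, and the nearest to Pde4d were Zc3h12a at 1.67, Arc at 1.68 and ENSMUSG00000113175, a gene without a matched symbol, at 1.67.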
